A study of Mus musculus with 11 samples.

Results

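Mir126 is the hairpin gene of the microRNA miR-126, named Mir126a in current annotation. It was chosen by name, as 1 of the 3859 small RNA genes in the deposited table, of which 1930 were miRNA genes, and it had a value above 0 in every one of the 11 libraries. The libraries follow mouse embryonic fibroblasts (MEF) on their way to induced pluripotent stem cells (iPSC). All libraries are labelled Mbd3f/-: one allele of Mbd3 is floxed and the other is deleted. Mbd3 encodes a component of NuRD, a repressive chromatin complex. Adding doxycycline switched on a transgene in the MEF that encodes Oct4, Klf4, Sox2 and Myc (OKSM). There was 1 library each of MEF, of days 1 to 8 after doxycycline, of an established iPSC line and of embryonic stem cells (ESC). The ESC column carries the name of the V6.5 line, which the design text lists as either Mbd3f/- or wild-type, so the genotype of that library is uncertain.

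The cells first grew in medium with serum and LIF under reduced oxygen, and later in serum-free medium with LIF and blockers of the MEK and GSK3 kinases. From day 3 onwards, and in both lines, the cells sat on irradiated human foreskin fibroblasts (feeders), so feeders, medium and time cannot be told apart between early and late libraries. The labels place none of the libraries in an endothelial cell type. Mir126 was the only miRNA on the list of endothelial markers, so the small RNA table holds no second marker of that list against which its label could be checked.

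miR-126 is best known from blood vessels. Its hairpin lies within Egfl7, a gene for a protein that endothelial cells secrete, and is cut from that transcript. In endothelial cells miR-126-3p is known to lower Spred1 and Pik3r2, inhibitors of signalling downstream of the growth factor VEGF, and blood stem and progenitor cells carry miR-126 as well.

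In GENCODE vM21 (GRCm38), Mir126a spans chr2:26591357-26591429 on the plus strand, inside Egfl7 at chr2:26580014-26593120. Of 19 annotated Egfl7 transcripts, 9 span the hairpin, which is intronic in 8 of them and exonic in 1. A second hairpin, Mir126b, is annotated on the minus strand at chr2:26591363-26591420. The sequences, from RefSeq (GRCm38.p6), are printed 5′ to 3′ because the hairpins overlap. Capitals mark the mature strands listed in RefSeq. The entries used here held none for miR-126a-5p, the strand of the other arm of Mir126a. That arm is therefore in lower case, and its mature strand is not printed.

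Mir126a hairpin: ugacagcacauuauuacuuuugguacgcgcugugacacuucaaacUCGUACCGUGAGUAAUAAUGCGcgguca

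Mir126b hairpin: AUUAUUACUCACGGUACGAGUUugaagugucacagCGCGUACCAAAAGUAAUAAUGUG

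The mature strands follow, with the seed, bases 2 to 8 of the strand and the main determinant of target choice, in capitals.

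mmu-miR-126a-3p: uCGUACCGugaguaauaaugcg

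mmu-miR-126b-5p: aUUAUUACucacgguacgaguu

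mmu-miR-126b-3p: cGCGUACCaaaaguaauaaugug

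The 58 bases of Mir126b are the reverse complement of bases 7 to 64 of the 73-base Mir126a hairpin. The mature miR-126a-3p takes up bases 46 to 67 of its hairpin. Among 1738 mature miRNA entries with 1398 different seeds, 0 others carried the seed of miR-126a-3p. The deposited table has 1 row for Mir126 and 0 for Mir126b. Whether the authors counted by strand is not given in the sources used here, so reads of the 2 strands cannot be told apart, and the single value of a hairpin does not separate its arms.

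The authors' values are FPKM, which scale the fragments of a gene by a measure of its length and by the mapped fragments of its library. Low values of the other 31 transcripts of exactly 73 nt came in whole steps, which gave the worth of 1 read at that length in each library. It was between 34.2 FPKM on day 7 and 64.6 FPKM in MEF. Of 97 low values, 83 were whole within 0.05 read. The steps were chosen on these same values, so that share is not an independent check. With these steps Mir126 rested on between 358 reads on day 1 and 5504 reads in ESC. The 95% exact Poisson intervals given below cover counting error only. Each stage had 1 library, so there is no spread between replicate cultures.

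Mir126 was highest in the pluripotent lines. It stood at 204018 FPKM in iPSC (4048 reads, interval 197786 to 210407) and at 231538 FPKM in ESC (5504 reads, 225469 to 237746). In the course, it was at 44995 FPKM in MEF (697 reads, 41716 to 48463), 21468 on day 1 (358 reads, 19301 to 23811), 27083 on day 2 (494 reads, 24751 to 29585), 25064 on day 3 (654 reads, 23179 to 27060) and 54470 on day 4 (1331 reads, 51586 to 57481). It was at 26364 FPKM on day 5 (442 reads, 23969 to 28947), 41202 on day 6 (810 reads, 38413 to 44140), 24076 on day 7 (704 reads, 22330 to 25922) and 55912 on day 8 (1537 reads, 53159 to 58788). Both lines lay above MEF and every day of the course, with no overlap, while the 9 libraries of the course stayed within 2.60-fold of each other in FPKM. As a share of the summed miRNA FPKM of a library, described below, the highest and the lowest of the 9 were 5.47-fold apart.

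In falling order, the levels ran ESC, iPSC, day 8, day 4, MEF, day 6, day 2, day 5, day 3, day 7 and day 1. The counting intervals of ESC and iPSC did not overlap, although ESC was only 1.13-fold above iPSC. Those of iPSC and day 8 were apart at 3.65-fold, those of day 4 and MEF at 1.21-fold, and those of day 6 and day 2 at 1.52-fold. Day 8 and day 4 overlapped, as did MEF and day 6, and each neighbouring pair in the run of day 2, day 5, day 3, day 7 and day 1. None of these steps has a replicate check.

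**Figure D1:**
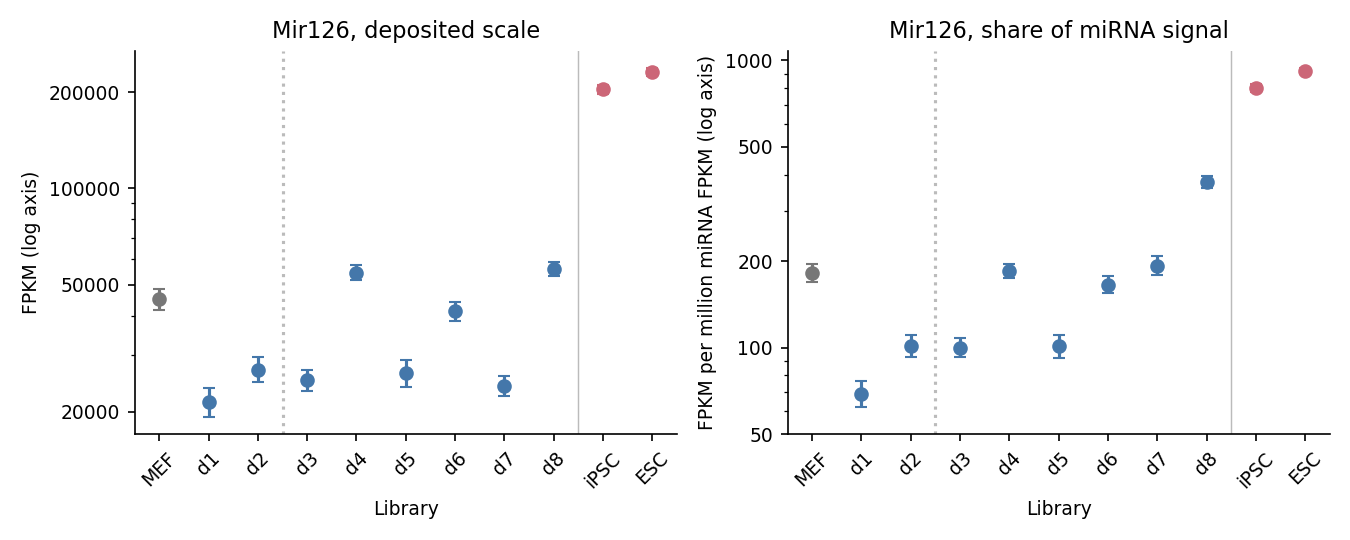
Mir126 in each library (d1 to d8 are days 1 to 8) as deposited FPKM on the left and as a share of summed miRNA FPKM on the right, both on log axes; bars are 95% Poisson intervals of the recovered reads, the dotted line marks the start of feeder cells and the solid line the end of the course. iPSC and ESC lie above the other 9 libraries on both scales, and day 8 comes next.

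The first question was whether Mir126 moved with time between MEF and day 8. It had no detectable trend. Its slope was 0.05 ± 0.08 per day on the log2(FPKM + 10) scale (SE over 9 libraries, MEF placed at day 0; limma adjusted p = 0.738), and a curve with day and day squared was not called either (limma F-test, adjusted p = 0.734). In the same fits 327 of 1419 transcripts (23%) had a slope past an adjusted p of 0.05, 177 rising (12.5%) and 150 falling (10.6%), and 463 (32.6%) were called by the curve. The sign of the slope turned without day 8 (-0.0073, adjusted p = 0.979), so its direction rests on that library. It was 0.12 without MEF, 0.02 without day 1, 0.09 without day 7 and between 0.04 and 0.06 without any other single day, with adjusted p from 0.385 to 0.926 in those fits.

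Single steps went both ways. Day 1 stood at 0.477 times the MEF level, 21468 FPKM against 44995, the lowest value of the series. Between day 2, the last library without feeders, and day 3, the first with them, the step was small: 25064 FPKM on day 3 against 27083 FPKM on day 2, a log2 difference of -0.11. Day 4 was 2.17-fold above day 3, day 5 was at 0.484 times day 4, and day 8 was 2.32-fold above day 7. Day 8 itself was 1.24-fold above MEF.

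Days 7 and 8 differ from the other libraries in how much signal the table holds. Summed miRNA FPKM was 124691000 on day 7 and 148163000 on day 8, and between 247302000 and 310909000 in MEF and on days 1 to 6. As a share of that sum, Mir126 was at 182 ppm (FPKM per 1000000 of summed miRNA FPKM) in MEF, 69.0 ppm on day 1, 102 on day 2, 100.1 on day 3, 185 on day 4, 101 on day 5, 166 on day 6, 193 on day 7 and 377 on day 8. It was at 802 ppm in iPSC and 918 ppm in ESC. On this scale day 8 was 2.07-fold above MEF, and MEF came in place 6 and day 7 in place 4 of the 11 libraries. The slope was 0.17 ± 0.08 per day (limma adjusted p = 0.169), beside a median of 0.12 over all transcripts tested. Without MEF on the same scale, a fit added after the data were seen, it was 0.27 ± 0.08 per day (limma adjusted p = 0.0352, all-transcript median 0.07). A rise from day 1 to day 8 was thus called on the share of miRNA signal, and not on the deposited scale (0.12 ± 0.09, adjusted p = 0.385). Some rows with large values elsewhere are listed at 0 and add nothing to a library's sum. They were Mir143 in MEF (40549900 FPKM on day 1), Mir92-1 on day 2 (25639000 on day 1) and Mir295 in iPSC and ESC (31201600 on day 8). Shares and fits on miRNA signal were not corrected for these zeros, and their effect was not tested.

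The second question was how the established lines compare with cells still on the way, with all 8 libraries on human feeders. How much feeder RNA each library held was not tested. Mir126 was higher in the lines. The means were 217778 FPKM over iPSC and ESC and 37848 ± 14825 FPKM over days 3 to 8 (SD, n = 6 different days), a 5.75-fold ratio of means. The 6 days ranged between 24076 and 55912 FPKM, with a median of 33783. On the log2 scale the lines stood 2.61 ± 0.48 above days 3 to 8 (SE; limma adjusted p = 0.0361), higher in 2 of 2 lines than in 6 of 6 days. An exact two-sided permutation test over these libraries gave p = 0.0714, the smallest that 28 splits allow. In the same limma fit 40 of 1419 transcripts (2.82%) were called higher in the lines and 4 (0.282%) lower. The median over all transcripts was a difference of 0.27, so Mir126 stood 2.34 above it, and 91.2% of miRNA transcripts had a smaller difference.

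The size of this difference held better than its call. With the libraries rescaled to summed miRNA FPKM it was 2.35 ± 0.54 (limma adjusted p = 0.09), and 2.05 ± 0.48 (adjusted p = 0.102) once the libraries were quantile-normalized. The adjusted p was 0.0515 without day 3, 0.0834 without day 5, 0.0673 without day 6, 0.0668 without day 7, 0.212 without iPSC and 0.0976 without ESC, with differences between 2.50 and 2.71. It stayed under 0.05 without day 4 (0.0455) and without day 8 (0.0322). The lines are different cells and not replicate cultures, so the p measures the scatter of these 8 libraries.

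Being above the whole course in both lines was not rare. Of 1419 transcripts tested, 175 (12.3%) had iPSC and ESC both above MEF and all 8 days, as had 94 of 901 miRNA transcripts (10.4%). By FPKM, Mir126 ranked 100 among the 1930 miRNA genes in iPSC and 94 in ESC, against 129 on day 8, 159 in MEF and 199 on day 1. Such ranks are approximate, since FPKM of short transcripts depends strongly on their length.

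**Figure D2:**
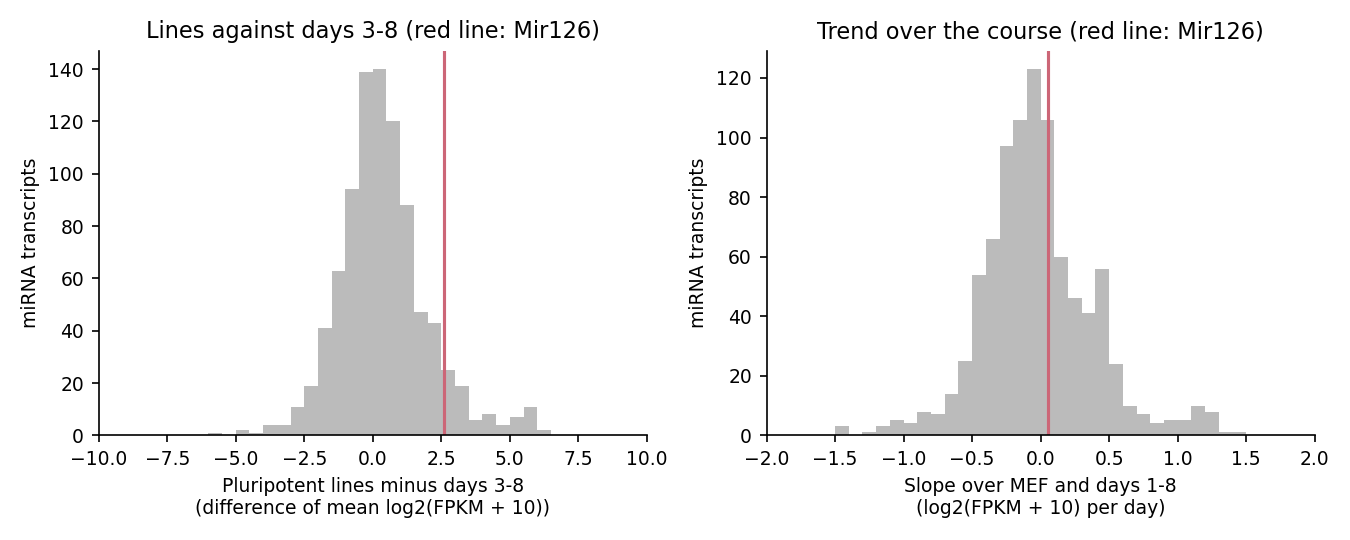
Histograms over the 901 miRNA transcripts tested, of the difference between the pluripotent lines and days 3 to 8 (left, mean log2(FPKM + 10)) and of the slope over MEF and days 1 to 8 (right, log2 per day); the red line is Mir126, and 2 transcripts on the left and 1 on the right lie beyond the axis. Mir126 stands at 2.61 in the right flank of the first distribution and at 0.05 near the middle of the second.

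The marker lists give the setting in which Mir126 was measured. They are described by counts, read against the shares of all transcripts given above. Members counted as rising, falling or not called over the course are counted by the slope fit. The 12 pluripotent miRNAs, the miR-290 and miR-302 clusters, all rose over the course, with a median slope of 1.16 per day. Against days 3 to 8 their median difference in the lines was 2.12, with 1 of 12 called higher (Mir291b), 1 lower and 5 at an unadjusted p under 0.05. That lower one was Mir295, which the table lists at 0 in iPSC and ESC and at 31201600 FPKM on day 8, so no fold is given. Beside them stand the slope of 0.05 and the difference of 2.61 of Mir126.

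Of the 9 blood cell miRNAs, 4 fell over the course (Mir155, Mir486, Mir223 and Mir511) and 5 were not called by slope. The median slope was -0.43. Of those 5, the curve with day and day squared called Mir142 and Mir150 (limma F-test, adjusted p = 0.0038 and 0.0055). Mir486, of red cells, was at 30723 FPKM in iPSC, 60356 in ESC and 43030 on day 8, against 649014 in MEF. Mir142, expressed across blood cells, was at 563551 FPKM in iPSC and 187969 in ESC, between 5752 and 46201 on days 3 to 8, and at 232146 in MEF. Mir142 was called higher in the lines than on days 3 to 8 (difference 4.41, limma adjusted p = 0.0361). Mir146, an inducible miRNA of immune cells, was called lower (-4.54, adjusted p = 0.0407). The members of this list therefore moved in both directions.

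Of 15 vessel-related miRNAs, chosen for reported roles in angiogenesis and not restricted to endothelium, 14 were tested. Over the course 3 fell (Mir132, Mir218-1 and Mir218-2) and 11 were not called, with a median slope of -0.14. In the lines against days 3 to 8, 0 of 14 were called by limma in either direction, with 4 at an unadjusted p under 0.05. Of those 4, Mir221 (-2.23), Mir132 (-2.05) and Mir23b (-1.45) were lower in the lines and Mir130a (1.54) was higher. The median difference was -0.25, beside 2.61 for Mir126. Mir27b, of the miR-23b cluster, was at 4734220 FPKM in iPSC, 4668260 in ESC and between 3251540 and 11091200 on days 3 to 8. Mir222 was at 46322 FPKM in iPSC and 811467 in ESC, with 482255 to 1073000 on days 3 to 8, so the lines lay far apart from each other. Mir92-1 was listed at 0 on day 2, between 25639000 FPKM on day 1 and 22286300 on day 3. Its slope of 0.55 includes that 0, and it enters the count of 11 and the median slope.

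Markers of other cell types were measured in the same libraries. Of 8 fibroblast and mesenchymal miRNAs 6 fell over the course (median slope -0.34), and Mir143 is listed at 0 in MEF. The slope of Mir143, 1.15 and not called, includes that 0 and enters the median slope. In the lines 0 of the 8 were called by limma, with 1 at an unadjusted p under 0.05. Without Mir143 the summed FPKM of the other 7 was 6273527 in iPSC and 13125680 in ESC, against 64056997 in MEF. Within days 3 to 8 that sum went from 29324712 on day 3 to 5650097 on day 8. Both lines thus lay above day 8 in the sum. In iPSC this rested on Mir10b, at 4202500 FPKM against 1745500 on day 8. Every other one of the 7 was lower in iPSC than on day 8, such as Mir21 at 1929470 against 2673370 FPKM. The log2 median of all 8 was 15.33 in iPSC, 19.25 in ESC and 18.61 on day 8. Of 5 muscle miRNAs tested, 5 fell, with sums of 1675 FPKM in iPSC, 720 in ESC and 331 on day 8, against 176879 in MEF. Of 7 epithelial miRNAs 4 rose and 1 fell (Mir203), and their median difference between lines and days 3 to 8 was 2.81, with 1 called higher (Mir203) and 5 at an unadjusted p under 0.05. Both lines were above MEF and all 8 days in 5 of these 7 miRNAs. Of 8 neural miRNAs limma called 0 by slope and 0 in the lines, with 0 and 3 at an unadjusted p under 0.05. Those 3, Mir9-2, Mir9-3 and Mir137, were lower in the lines. The curve with day and day squared called Mir124a-1, Mir124a-2 and Mir124a-3 (limma F-test, adjusted p = 0.0047, 0.0024 and 0.0071). In bulk libraries, more cells with Mir126 and more Mir126 per cell cannot be told apart, and the part of other cell types in the level of Mir126 was not tested.

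**Figure D3:**
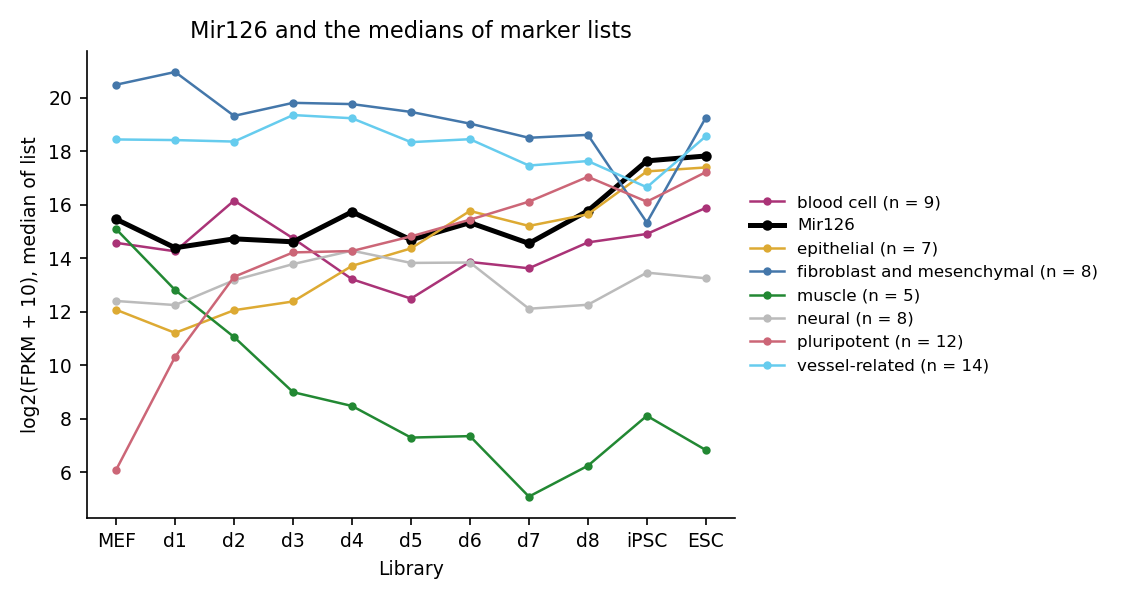
Log2(FPKM + 10) of Mir126 (black) and the median of the tested members of each marker list in the 11 libraries (d1 to d8 are days 1 to 8). Mir126 lies between 14.39 on day 1 and 15.77 on day 8 in the course and reaches 17.82 in ESC, while the pluripotent median is at 6.10 in MEF and 17.04 on day 8, and the muscle median at 15.09 in MEF and 6.25 on day 8.

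By the correlation of log2(FPKM + 10) over the 11 libraries, the transcripts most like Mir126 among 920 others with a mean of at least 100 FPKM and a value in at least 6 libraries were Mir130a (Pearson r = 0.94), Mir425 (0.92), Mir195 (0.91), Mir101a (0.90), Mir497 (0.88), Mir1199 (0.87), Mir363 (0.86) and Mir181c (0.84). The median over the 920 was 0.20. These values describe the 11 libraries, which share a scaling and form a high pair and a low group of 9. Within the 9 libraries of the course alone r was 0.63 for Mir130a, 0.75 for Mir425, 0.56 for Mir195, 0.36 for Mir101a, 0.50 for Mir497, 0.58 for Mir1199, 0.36 for Mir363 and 0.11 for Mir181c, with a median of -0.01 over the 920.

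Mir130a, a miRNA with a reported role in blood vessel growth and a member of the vessel-related list, was at 2501190 FPKM in iPSC and 3190400 in ESC. It stayed between 742873 and 1244700 on days 3 to 8 and was at 834920 in MEF. Its lines over days 3 to 8 ratio of means was 2.87, smaller than the 5.75 of Mir126. The difference was not called for Mir130a (limma adjusted p = 0.0652). Mir363, of the X-linked paralog of the miR-17-92 cluster, had the steepest climb of the 8, at 1278920 FPKM in iPSC and 1132780 in ESC, against 96184 on day 8 and 2333 in MEF. Mir195 was at 22552 FPKM in iPSC, 41263 in ESC and 6632 in MEF, and dipped to 1632 on day 2. Mir195 and the row named Mir497 lie next to each other on chromosome 11, and the identifier of that row belongs to a hairpin called Mir497b in GENCODE vM21.

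**Figure D4:**
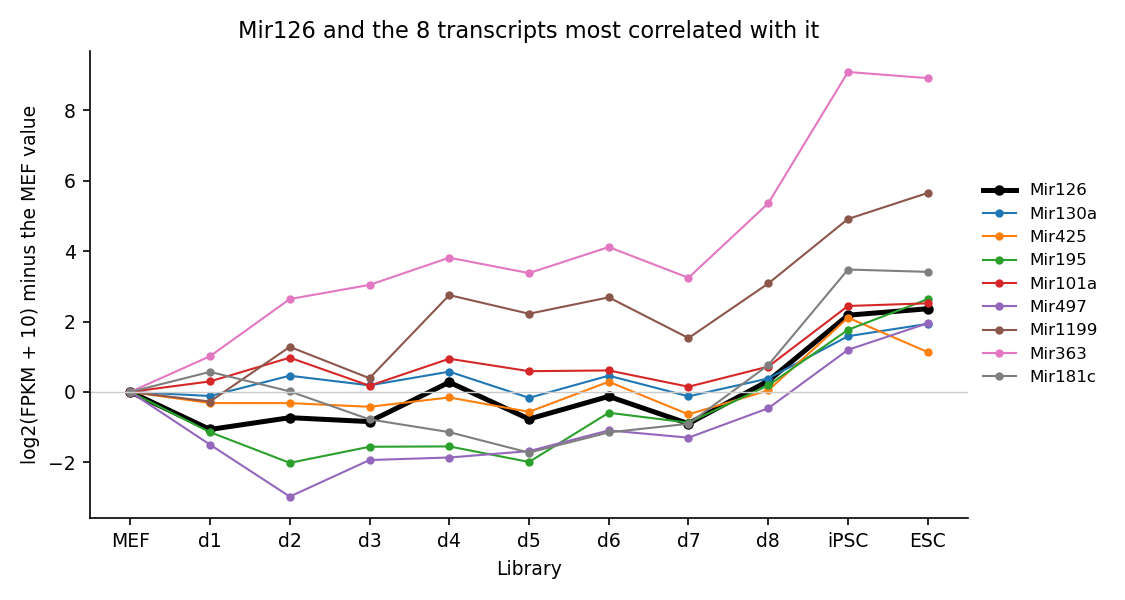
Log2(FPKM + 10) minus the MEF value of the same transcript, for Mir126 (black) and the 8 transcripts most correlated with it over the 11 libraries (d1 to d8 are days 1 to 8). All 9 stand above their MEF value in iPSC and ESC, and they spread widely on days 1 to 8.

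Within 100 kb of Mir126 the table held 2 other small RNAs, the H/ACA snoRNAs Snora43 and Snora17, which lie 46.5 and 47.8 kb downstream on the other strand. Snora17 was at 502 FPKM in iPSC and 244 in ESC, against 5845 on day 8 and 189 in MEF, and rose by 0.96 ± 0.27 per day over the course (limma adjusted p = 0.0292). Its level was higher on day 8 than in either line. Snora43 was under 1 FPKM in both lines, in MEF and on days 1 to 5. Its level was 103 FPKM on day 6, dropped to 17.2 FPKM by day 7, and day 8 had 274 FPKM. It also rose over the course, by 0.51 ± 0.15 per day (limma adjusted p = 0.0391), with only those 3 days above 1 FPKM.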

How the data were processed

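Small RNA was sequenced from 11 mouse libraries, 1 per stage. Per the labels' protocols, libraries came from total RNA with the TruSeq small RNA kit and gel size selection. The deposited table gives FPKM computed by the authors, and per the submitters' processing notes CASAVA 1.8.2, Bowtie2 2, Cufflinks 2.2.1 and mm10 were used, with no roles stated. The sources used here do not give the annotation, the handling of multi-mapping reads or the filter behind the table. Of 3859 gene IDs, 3712 were found in GENCODE vM21.

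Values were analysed as log2(FPKM + 10) over 1419 transcripts with a mean of at least 10 FPKM, in limma 3.58.1 (R 4.3.3) with empirical Bayes, two-sided tests and Benjamini-Hochberg adjustment over all 1419 at 0.05. Fold changes of low genes come out too small on this scale. The slope fit used MEF and days 1 to 8 (7 residual degrees of freedom), the other fit iPSC and ESC against days 3 to 8 (6). The permutation test used scipy 1.17.1, and the fits were tested on simulated data. A miRNA gene is a row named as one or typed as miRNA in GENCODE. Reads were recovered with the largest step that made at least 65% of values up to 60 reads whole, a setting chosen after the values were seen. Mir126 and the lists were chosen with earlier results of these data known. Named transcripts were the list members of highest mean, members behind counts of 5 or fewer (chosen after their values were seen), the 8 most correlated, and small RNAs within 100 kb. Mir1a-2, Mir24-1 and Mir9-1 of the lists had no row.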

Additional observations from a re-analysis of the deposited data

How the results depend on the processing

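Mir126 had at least 358 recovered reads in every library, and the effect of depth on the lines' difference was not tested. The difference between the pluripotent lines and days 3 to 8 was positive in every alternative, from 2.50 to 2.75 when 1 library was left out. Its call was lost with a pseudocount of 1 (2.62, limma adjusted p = 0.0564), after rescaling to miRNA signal (2.35), after quantile normalization (2.05) and without days 7 and 8 (2.64, adjusted p = 0.0502, an alternative added after the data were seen); the cause was not tested. It was kept with a pseudocount of 100 (adjusted p = 0.0154), with no filter, in miRNAs alone and, added later, against MEF and days 1 to 8 (2.70, adjusted p = 0.0457). The slope was called at 0.27 in the added fit on miRNA signal without MEF and in no other alternative, with values between -0.0073 (without day 8) and 0.12 when 1 library was left out. The curve was not called in any alternative, with adjusted p from 0.414 to 1 with 1 library left out. It came nearest on miRNA signal (limma F-test, adjusted p = 0.0916), and had 0.2975 after quantile normalization. Day 8 minus MEF was 0.31 as deposited and 1.05 on miRNA signal.

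Counts over all transcripts moved more. Rising transcripts numbered 311 on miRNA signal, 111 in miRNAs alone, 66 within days 3 to 8, and 93 to 175 with 1 library left out. Falling ones numbered 80 within days 3 to 8, 69 without days 7 and 8, and 97 to 170 with 1 library left out. Transcripts higher in the lines numbered 11 with a pseudocount of 1, 83 with 100, 13 on miRNA signal, 10 after quantile normalization, 14 against MEF and days 1 to 8, 19 without days 7 and 8, and 7 to 45 with 1 library left out. Lower ones numbered 9 with a pseudocount of 100, 9 on miRNA signal, 9 after quantile normalization, 10 without days 7 and 8, and 1 to 18 with 1 library left out. No paired analysis was possible because each group has 1 library and the labels give no replicate numbers.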

Other observations

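Within days 3 to 8 Mir126 alternated, with days 4, 6 and 8 (54470, 41202 and 55912 FPKM) above days 3, 5 and 7 (25064, 26364 and 24076 FPKM). Each of the higher days lay above its neighbours. The same order was found in 213 of 1419 transcripts tested (15.0%) and in 121 of 901 miRNA transcripts (13.4%), Mir130a and Mir425 among them. On the share of miRNA signal the order did not hold for Mir126, since day 7 (193 ppm) was above day 6 (166 ppm).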
